A study of Arabidopsis thaliana with 30 samples.

Results

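The later wound response of the Arabidopsis thaliana mutant hsfa1abd-2 was followed from 3 to 24 h after its hypocotyls were cut. The comparison uses 6 of the 30 libraries of the series, taken by their labels: the 3 mutant libraries at 24 h and the 3 mutant libraries at 3 h. Seedlings of the mutant and of its Col-0 wild type were grown for 7 days in darkness on MS medium, a standard salt medium for plants, and the stem-like hypocotyl was then wounded with a scalpel. Each library comes from about 50 explants of whole hypocotyl tissue, with 3 biological replicates per genotype and time at 0, 0.5, 1, 3 and 24 h. The groups used here are hsfa1abd-2 at 3 h, hsfa1abd-2 at 24 h, and, for comparison, the same genotype at earlier times and the wild type at all 5 times. All groups, those at 0 h included, carry the label of wounding, and no uncut seedlings of matching age were analysed here. Time since the cut can therefore not be told apart from the added age of the tissue or from the time of day.

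The mutant is named after HSFA1A, HSFA1B and HSFA1D, members of the HSFA1 class of heat shock factors. These transcription factors are kept inactive in unstressed cells in part by binding to chaperones, and on heat or other protein-damaging stress they switch on genes for chaperones and for further stress regulators. Wounding of a plant organ sets off an early wave of stress, jasmonate and defence transcripts, and later, at cut ends, a change of cell identity and new cell division that can lead to callus and regeneration. The series title links these themes, and the step from 3 to 24 h spans the passage from the early wave to the later state in plants that carry the mutant alleles. The labels do not describe the alleles, and the mutant is 1 line.

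The rows of the deposited count table carry no gene identifiers, so no gene is named and no sequence is shown. Each row is called a feature, and the 4 features described singly are given by their row number. For the same reason the level of the mutated genes and of tissue markers was not read. The 6 libraries held 3380792 to 4103299 counts each, and 3 counts equal 0.695 to 0.909 CPM, the count scaled to a common library size in them. At least 1 count was found for 21049 to 21450 features in a 3 h library and for 21095 to 21303 in a 24 h library. Of the 36635 rows, 18526 had enough counts to be tested.

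The 3 mutant libraries at 3 h were less alike than those at 24 h. Over the tested features, log2 CPM of pairs of replicates gave r = 0.957 to 0.964 among the 3 h libraries and r = 0.981 to 0.982 among the 24 h libraries. The biological coefficient of variation within the group was 19.6% at 3 h and 7.16% at 24 h, against 9.79% for the wild type at 3 h and 10.03% at 24 h. Replicate 2 at 3 h lay furthest by the count of features at least 2-fold away from the mean of its partners. It had 302 such features of 12296 that were well covered. That number was 99 for replicate 1 and 206 for replicate 3 at 3 h, and 20 to 37 in the libraries at 24 h. Between the times, libraries correlated at r = 0.822 to 0.866, below every pair within a time. The coefficients run across features, which are no independent replicates, and describe the libraries only.

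Many measured features differed between 24 and 3 h in the mutant, and the larger changes were mostly falls. The quasi-likelihood test of edgeR, with p-values adjusted after Benjamini and Hochberg and a threshold of 0.05, called 9803 of 18526 features (52.9%). With 1 of the 6 libraries left out, 8637 to 9624 features were called. In RNA of a whole tissue, fewer cells of a type and less RNA per cell cannot be told apart. Of the 9803 called, 4611 were higher at 24 h (24.9% of those tested) and 5192 were lower (28%). Among called features, 1862 were at least 2-fold higher (10.1%) and 2831 at least 2-fold lower (15.3%), so rises made up 39.7% of the 2-fold changes. This balance depends on the scaling of the libraries. Upper quartile scaling moved the median log2 fold of all features up by 0.137 and gave 2421 rises and 2452 falls of at least 2-fold, or 49.7% rises. With that scaling 57.1% of all calls were rises, against 47.0% here.

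Most called changes were small. The median size of a called change was 0.969 on the log2 scale, and 5110 of the 9803 (52.1%) were under 2-fold. Changes of 2- to 4-fold numbered 1523 rises and 1678 falls, which is close to balance, while changes of 4- to 8-fold were 232 rises and 661 falls. From 8- to 16-fold there were 73 rises and 270 falls, and from 16- to 32-fold 24 rises and 126 falls. Over 32-fold there were 10 rises and 96 falls. The median level of the lower group there was 0 CPM for the rises and 0.246 CPM for the falls. For features with so few counts the size of the fitted fold is not well determined. The excess of falls thus lay in the large changes, and it did so with upper quartile scaling as well, where 406 rises and 1025 falls were at least 4-fold. Falls of 4- to 8-fold went from a median level of 28.8 CPM at 3 h to 5.44 CPM at 24 h, and rises of that size from 2.21 to 10.9 CPM.

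**Figure D1:**
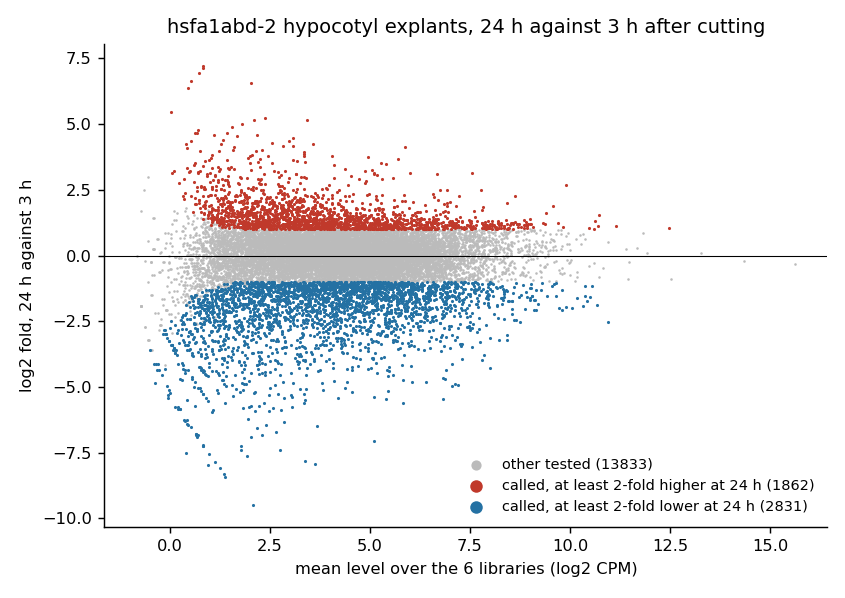
Each point is 1 of the 18526 tested features of the mutant, with its mean level over the 6 libraries in log2 CPM on the horizontal axis and its log2 fold between 24 and 3 h on the vertical axis. The 2831 called falls of at least 2-fold (blue) reach further from 0 than the 1862 called rises (red) at most levels.

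With the scaling used here, falls outnumbered rises in each of 4 level classes. The classes were not counted again with upper quartile scaling, which brought the whole near balance. The tested features were divided by their mean level over all 30 libraries, in CPM not corrected for transcript length. Only 6 of the 30 are from 24 h, so this mean favours higher classes for features that are high before 24 h, and no trend over the classes is read from these shares. In the lowest class, with a median of 3.69 CPM, 759 features were at least 2-fold higher and 878 at least 2-fold lower, so 46.4% were rises. In the highest, with a median of 86.0 CPM, 325 were higher and 745 lower, so 30.4% were rises. The share of features called was 41.1% in the lowest class and 66.9% in the highest, while the median size of the log2 change was 0.792 in the lowest class and 0.512 in the highest. Counting error is smaller at higher counts.

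The features that fell took up a much larger share of the mutant counts at 3 h than at 24 h. The 2831 features at least 2-fold lower held 25.6%, 22.7% and 27.6% of all counts in replicates 1, 2 and 3 at 3 h. At 24 h they held 7.95%, 7.76% and 7.82%. The 1862 features at least 2-fold higher went the other way, from 5.61%, 6.11% and 5.19% to 15.6%, 15.3% and 15.2%. In both sets the groups do not overlap, which the choice of the sets on these libraries fixes. For the set that fell, the SD over the 3 replicates was 2.45 percentage points at 3 h and 0.0989 at 24 h.

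Both sets were followed at 0, 0.5 and 1 h, in libraries that did not choose them. The mutant medians at 3 and 24 h come from the libraries that chose the sets. For the falls this choice favours a high median at 3 h and a low one at 24 h, and for the rises the reverse. The median level of the features that fell in the mutant was 10.2 CPM at 0 h. It stood at 20.9, 23.8 and 29.4 CPM at 0.5, 1 and 3 h and came to 7.59 CPM by 24 h. These features thus stood higher in the mutant after the cut than at 0 h, climbed up to 3 h, and ended at 24 h below their 0 h median. The wild type, none of whose libraries chose the set, had medians of 10.3, 21.7, 23.1, 27.3 and 7.82 CPM at the same times, the same order. The features that rose had medians of 10.5, 8.75, 7.63, 6.31 and 18.2 CPM in the mutant and 9.55, 8.03, 7.22, 6.66 and 19.6 CPM in the wild type. Their median thus declined at each time up to 3 h in both genotypes and was highest at 24 h.

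**Figure D2:**
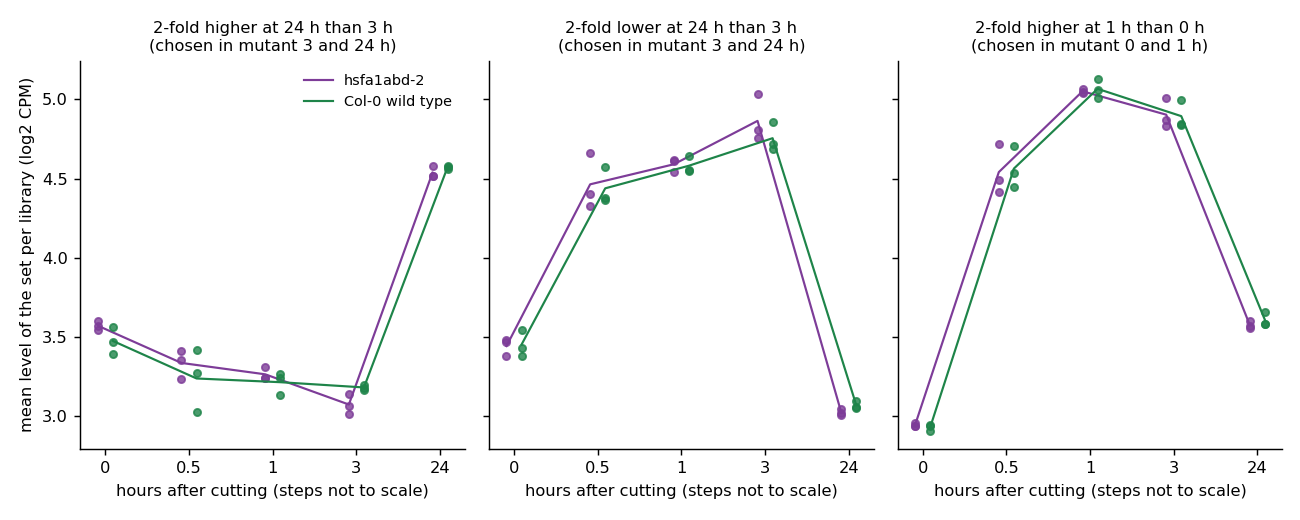
Mean level in log2 CPM of 3 sets of features at 0, 0.5, 1, 3 and 24 h after cutting, with 1 point per library and a line through the group means, for hsfa1abd-2 (purple) and the wild type (green). The set of 1862 rises is low until 3 h, that of 2831 falls is high from 0.5 to 3 h, and the third set, of 2228 features at least 2-fold higher at 1 h than at 0 h in the mutant, is back near 3.6 at 24 h.

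Features of the early wound response mostly fell between 3 and 24 h. To see this without shared libraries, the early response of the mutant was taken from 1 h against 0 h, where 2228 features were at least 2-fold higher (12% of those tested) and 973 at least 2-fold lower (5.25%). Of the 2228 early rises, 1323 (59.4%) were at least 2-fold lower at 24 h than at 3 h, against 15.3% of all tested features. Only 52 of them (2.33%) were at least 2-fold higher, and 485 (21.8%) were not called. The median log2 change of the early rises over the step was -1.29, against -0.01 for all tested features. The early rises make up 46.7% of the 2831 falls.

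The early rises came down part of the way. Their mean level in the mutant was 5.05 ± 0.0140 log2 CPM at 1 h and 4.90 ± 0.0927 at 3 h (SD, n = 3 libraries). At 24 h it stood at 3.56, 3.60 and 3.57 in replicates 1, 2 and 3, against 2.94 ± 0.00873 at 0 h (SD, n = 3). The wild-type libraries took no part in the choice. Their means were 2.93 ± 0.0215 log2 CPM before the response, at 0 h, then 4.89 ± 0.0893 by 3 h and 3.61 ± 0.0431 by 24 h (SD, n = 3). In both genotypes the set thus ended above its 0 h level and below its 3 h level, with no overlap between libraries of the 3 times.

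The early falls of the mutant came back by less. Of the 973 features at least 2-fold lower at 1 h than at 0 h, 224 (23.0%) were at least 2-fold higher at 24 h than at 3 h, against 10.1% of all tested features, and 126 (12.9%) were at least 2-fold lower, against 15.3%. Another 478 (49.1%) were not called in either direction. Their mean level changed over the step by 0.269, 0.106 and 0.195 log2 units in replicates 1, 2 and 3. The mean level was 3.95 ± 0.0548 log2 CPM at 0 h and 2.53 ± 0.0350 an hour later (SD, n = 3). By 3 h it was 2.70 ± 0.0764, and by 24 h 2.88 ± 0.0817 log2 CPM (SD, n = 3). The set was thus still about 1 log2 unit under 0 h at 24 h, where 0 h also took part in the choice of its features. The wild type, which did not, went from 4.01 ± 0.0374 at 0 h to 2.96 ± 0.0352 at 24 h (SD, n = 3).

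The same question was put with early classes taken from the wild type alone, which shares no library with the mutant step. Wild-type rises of at least 2-fold over 0 h numbered 1728 at 0.5 h (9.33% of those tested), 2302 at 1 h (12.4%) and 2657 at 3 h (14.3%). Falls of that size numbered 681 (3.68%), 1331 (7.18%) and 1655 (8.93%). Features with rises only were classed by the time of their highest called fold and those with falls only by the time of their lowest. Another 38 features had both, and 12704 had no 2-fold change up to 3 h.

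Wild-type early rises of each class were often falls in the later mutant step. Of 745 features that peaked at 0.5 h in the wild type, 412 (55.3%) were at least 2-fold lower at 24 h than at 3 h in the mutant. For 942 features that peaked at 1 h this was 443 (47.0%), and for 1720 that peaked at 3 h 878 (51.0%), against 15.3% of all tested features. Of the 3 classes together, 1733 features were 2-fold lower. Their rises of at least 2-fold were 27, 28 and 59, or 2.97% to 3.62%.

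The 3 classes kept their order in time in the mutant. Features that peaked at 0.5 h in the wild type had mutant medians of 6.80, 39.4, 24.4, 19.8 and 8.46 CPM over the 5 times from 0 to 24 h. Those that peaked at 1 h had 9.48, 22.8, 40.2, 24.9 and 12.3 CPM, and those that peaked at 3 h had 8.70, 13.2, 18.6, 35.8 and 17.2 CPM. Each class was thus highest in the mutant at the time of its wild-type peak, and the medians at 24 h lay above those at 0 h in all 3.

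**Figure D3:**
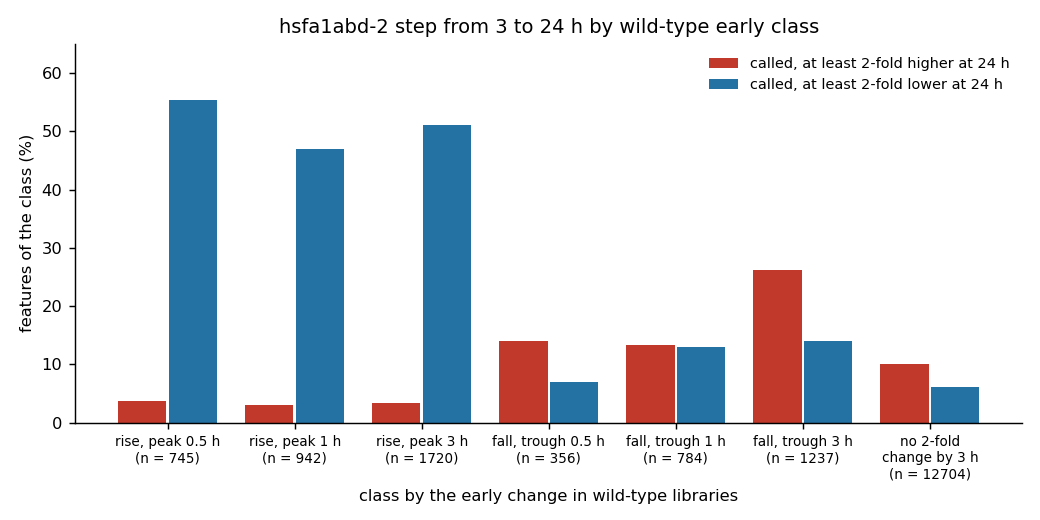
Share of features, in percent, that were called at least 2-fold higher (red) or lower (blue) at 24 h than at 3 h in hsfa1abd-2, by classes defined from the early change in wild-type libraries. Falls reach 47.0% to 55.3% in the 3 classes of early rises and 6.12% among the 12704 features with no early 2-fold change. The 38 features with both an early rise and an early fall are not drawn.

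Wild-type early falls were split in the mutant step. Of 1237 features whose wild-type level was lowest at 3 h, 325 (26.3%) were at least 2-fold higher at 24 h than at 3 h in the mutant, against 10.1% of all tested features, and 174 (14.1%) at least 2-fold lower. In 784 features lowest at 1 h, 105 rose (13.4%) and 102 fell (13.0%) by that measure, and in 356 features lowest at 0.5 h, 50 rose (14.0%) and 25 fell (7.02%). The class lowest at 3 h went from a mutant median of 14.6 CPM at 0 h to 5.93 CPM by 3 h and 8.01 CPM by 24 h.

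Most rises of the step came from features without an early 2-fold change, at the rate of all features. Of the 12704 features with no 2-fold change up to 3 h in the wild type, 1266 (9.97%) were at least 2-fold higher at 24 h in the mutant, close to the 10.1% of all tested features. They make up 68.0% of the 1862 rises. Falls in this class numbered 777 (6.12%, against 15.3% of all features) and make up 27.4% of the 2831 falls. The share of falls in this class was thus below that of all features, while the share of rises was near it.

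The step in the mutant followed that of the wild type closely. In the wild type, 2207 features were at least 2-fold higher at 24 h than at 3 h (11.9% of those tested) and 3049 at least 2-fold lower (16.5%). Of the 2207 wild-type rises, 1395 were also at least 2-fold higher in the mutant, which is 63.2% of the wild-type list and 74.9% of the 1862 mutant rises. Of the 3049 wild-type falls, 2149 were shared, which is 70.5% of that list and 75.9% of the 2831 mutant falls. No wild-type rise was a 2-fold fall in the mutant, and 9 wild-type falls were 2-fold rises there. Across all 18526 features the log2 folds of the genotypes correlated at r = 0.854, as a description of profiles that share 1 fit but no library.

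The mutant change was somewhat smaller where the wild type chose the features. Over the 2207 wild-type rises the mutant mean rose by 1.28, 1.19 and 1.19 log2 units in replicates 1, 2 and 3 (1.22 ± 0.0502, SD, n = 3), against 1.53 ± 0.0196 in the wild type (SD, n = 3). Over the 3049 wild-type falls the mutant mean changed by -1.55, -1.53 and -1.49 (-1.52 ± 0.0302, SD, n = 3), against -1.83 ± 0.0545 in the wild type (SD, n = 3). A set is always favoured in the genotype that chose it. With the sets chosen in the mutant, the mutant mean was 1.47 ± 0.0374 and the wild-type mean 1.39 ± 0.00963 over the 1862 rises (SD, n = 3). For the 2831 falls these were -1.84 ± 0.0219 and -1.69 ± 0.0234 (SD, n = 3). Each change is taken from the mean of the 3 h libraries as a fixed value, so the spread at 3 h is not in these SDs.

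Tested directly, the step differed between the genotypes in few features. The same edgeR test, applied to the mutant change minus the wild-type change, called 522 of 18526 features (2.82%). It was more positive in the mutant in 324 and more negative in 198, and of these 258 and 81 differed by at least 2-fold. The balance of the directions turned in a fit of the 12 compared libraries alone, with 298 more positive and 318 more negative, and without mutant 3 h replicate 3, with 168 and 200. Opposite calls were made in 75 features, 62 of them higher at 24 h in the mutant and lower in the wild type. The difference was called in 55 of those 62, and in 12 of the 13 that were lower in the mutant and higher in the wild type.

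The 324 features with a more positive step in the mutant had fallen in the wild type for the most part. In 166 the level was lower at 24 h in the wild type and not called in the mutant, in 55 it was lower in the wild type and higher in the mutant, and in 41 it was lower in both. In 57 it was higher in the mutant and not called in the wild type, and in 5 it was higher in both. The median log2 change was 0.35 in the mutant and -1.14 in the wild type, with median levels of 33.0 and 37.5 CPM at 3 and 24 h in the mutant and 37.1 and 18.8 CPM in the wild type. These classes use the same libraries as the test of the difference and describe the features it called.

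These 324 features were chosen on the libraries whose levels follow, so the direction of the gaps is fixed by the choice. The mean level of the set at 3 h in the mutant was 4.93, 5.35 and 4.71 log2 CPM in replicates 1, 2 and 3, and at 24 h 5.21, 5.32 and 5.36. In the wild type it was 5.34, 5.47 and 5.44 log2 CPM at 3 h, and the 24 h values were 4.28, 3.98 and 4.35. The mutant libraries at 3 h were spread over a wider range than the other 3 groups, and replicate 2 among them overlapped those at 24 h.

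In the 198 features with a more negative step in the mutant, both directions of change occurred. The level was lower at 24 h in both genotypes in 49, higher in both in 49, higher in the wild type and not called in the mutant in 48, lower in the mutant and not called in the wild type in 40, and opposite in 12. The median log2 change was -0.44 in the mutant and 0.47 in the wild type. The mean level at 3 h was 5.70, 5.63 and 5.66 log2 CPM in the mutant and 5.31, 5.37 and 5.40 in the wild type. At 24 h it was 5.17, 5.07 and 5.07 in the mutant and 5.79, 5.80 and 5.84 in the wild type. Here too the choice of the features on these libraries favours such gaps.

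The number of such features depends on single libraries. Of the mutant 3 h libraries, leaving out replicate 1 gave 298 features and leaving out replicate 2 gave 1229. Of those at 24 h, omission of replicate 2 gave 285 and of replicate 3 gave 238. For the wild type the number was 337 when replicate 1 of 3 h was dropped, 290 when replicate 2 of 3 h was dropped, and 253 when replicate 2 of 24 h was dropped. With replicate 2 of the mutant at 3 h left out, 822 were more positive and 407 more negative, and with replicate 3 left out the balance turned to 168 and 200. The part that the spread of the mutant 3 h libraries has in this number was not tested further.

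**Figure D4:**
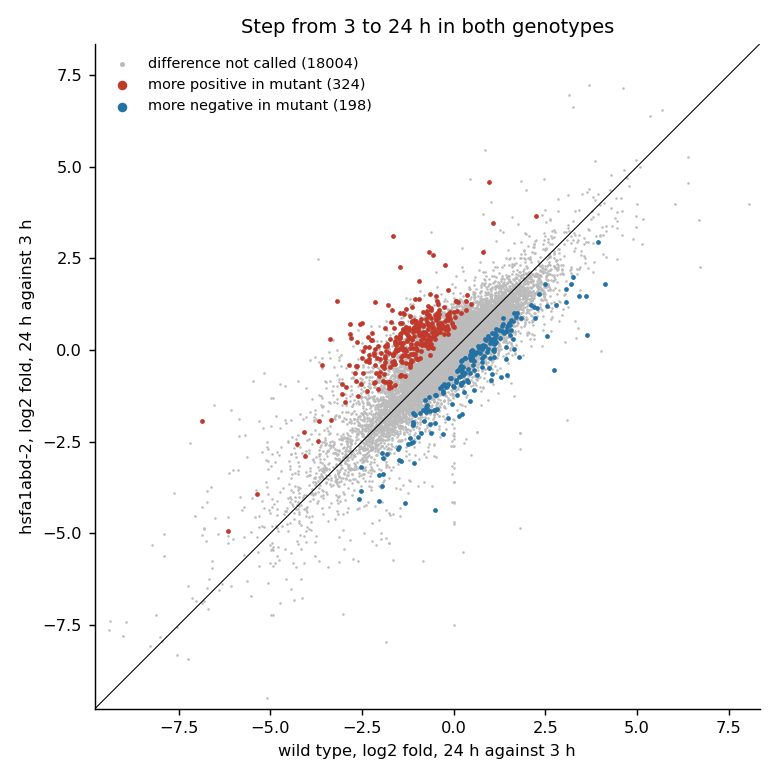
Log2 fold between 24 and 3 h in the wild type (horizontal) and in hsfa1abd-2 (vertical) for the 18526 tested features, with a line of equal change. The 324 features with a called, more positive difference in the mutant (red) lie mainly where the wild type is below 0, and the 198 with a more negative one (blue) lie on both sides of 0.

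Of the single features, 4 were chosen by rule to show the size and the timing of the step. Feature 6432 had the largest fold among rises with measurable counts at 3 h. It stood at 3.43, 0.606 and 0.895 CPM in mutant replicates 1, 2 and 3 at 3 h, from 12, 2 and 3 counts, and at 76.0, 53.9 and 54.1 CPM at 24 h. The libraries of both times lay far apart, and the means from 0 to 1 h in the mutant were 3.66 to 4.34 CPM, so the high level was reached after 3 h. The log2 fold was 5.17 (approximate SE 0.35, edgeR adjusted p = 8.11e-13) and 4.70 to 6.27 with 1 of the 6 libraries left out. In the wild type it reached 152 ± 12 CPM at 24 h (SD, n = 3), with a log2 fold of 4.97. The difference in step was 0.20 (SE 0.53, edgeR adjusted p = 0.909), and an SE of this size does not show that the genotypes act alike.

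Feature 33354 had the largest fall by the same rule and the course of an early wound response. In the mutant it averaged 6.36 ± 1.37 CPM before the response, at 0 h, then 193 ± 84.3 CPM by 0.5 h and 394 ± 40.3 CPM by 1 h (SD, n = 3). It then stood at 498, 243 and 369 CPM in replicates 1, 2 and 3 at 3 h and at 2.55, 2.92 and 2.78 CPM at 24 h. Its level at 24 h was thus below every 0 h library, which held 5.07 to 7.79 CPM. The log2 fold of the step was -7.06 (SE 0.35, adjusted p = 2.93e-14 by edgeR), and the wild type, with 458 ± 26.1 CPM at 3 h and 4.34 ± 1.26 at 24 h (SD, n = 3), gave -6.71.

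Feature 31341 had the largest rise in CPM among called features. It held 5656, 2900 and 3638 CPM at 3 h and 9514, 8166 and 7607 CPM at 24 h, so the lowest library at 24 h lay above the highest at 3 h. The log2 fold was 1.05 (SE 0.30, adjusted p = 0.0047 by edgeR). Its call was lost without mutant 3 h replicate 2, with a log2 fold of 0.77 and adjusted p = 0.0542. In the wild type the level went from 4324 ± 450 to 13781 ± 322 CPM (SD, n = 3), a log2 fold of 1.67, and the difference in step of -0.62 did not pass the test (SE 0.41, adjusted p = 0.502).

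Feature 32410 had the most CPM of all features at both times and the largest fall in CPM. It held 57355, 56602 and 53624 CPM at 3 h and 45143, 44460 and 45052 CPM at 24 h, with no overlap. Its mutant mean was 40168 ± 1553 CPM at 0 h and 51886 ± 2135 CPM an hour after the cut (SD, n = 3), so it was highest at 3 h. The log2 fold was small, at -0.32 (SE 0.10, adjusted p = 0.00835 by edgeR). The call was lost in a fit of the 6 libraries alone, with adjusted p = 0.192, and with upper quartile scaling, with a log2 fold of -0.18 and adjusted p = 0.127.

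**Figure D5:**
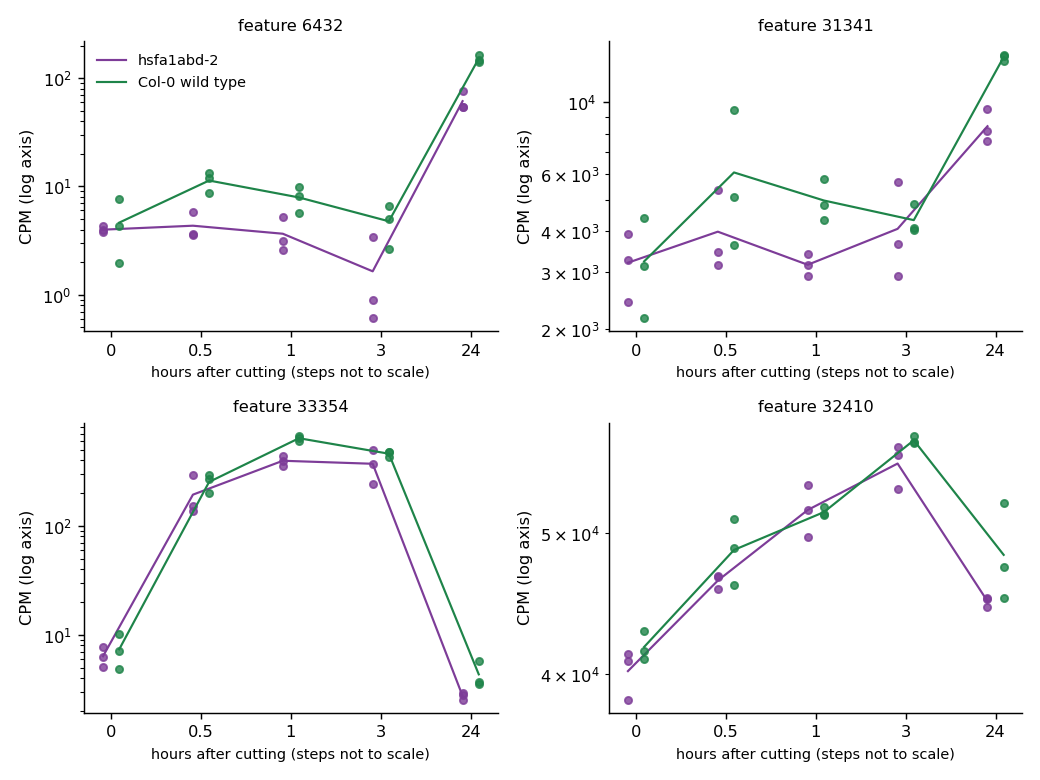
CPM on a log axis of features 6432, 31341, 33354 and 32410 at 0, 0.5, 1, 3 and 24 h after cutting, with 1 point per library and a line through the means, for hsfa1abd-2 (purple) and the wild type (green). Feature 6432 is at or under 5.81 CPM in every mutant library up to 3 h and at least 53.9 CPM at 24 h, and feature 33354 is at least 137 CPM from 0.5 to 3 h and under 3 CPM at 24 h in the mutant.

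The features with the largest steps in the mutant were mostly called in the same direction in the wild type. The 12 largest rises with at least 5 CPM at 24 h, at least 1 CPM at 3 h and no overlap between libraries had log2 folds of 3.79 to 5.17. All 12 were also at least 2-fold higher in the wild type, with log2 folds of 1.96 to 4.97. Of all 1862 mutant rises, 74.9% were. The 12 largest falls by the mirrored rule had log2 folds of -5.32 to -7.06, and in the wild type the 12 ranged from -4.16 to -6.73. Of these 12, 11 were called at least 2-fold lower in the wild type, and the other one did not pass the test there. Of all 2831 mutant falls, 75.9% were at least 2-fold lower in the wild type. The difference in step was called in none of these 24, against 522 of all 18526 features (2.82%). At that share, 24 features are too few to tell whether the largest steps differ from the rest in this. Median levels of the 12 falls in the mutant were 4.86, 29.6, 61.4, 116 and 2.03 CPM over the 5 times from 0 to 24 h. Those of the 12 rises were 3.90, 3.85, 3.50, 1.74 and 35.7 CPM, so their high level was seen at 24 h alone among the 5 times.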

How the data were processed

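RNA was isolated with an RNeasy kit and made into stranded mRNA libraries, per the labels' protocols. The submitters' processing notes name fastp, STAR and TAIR10; for tool versions, counting tool, strand setting and annotation, the sources used here give nothing, so reads of near-identical or overlapping genes may be split or merged. The authors deposited 1 table of raw counts per feature and library, not normalized and without gene identifiers. Gene lists and cell type markers need identifiers and went untested, and the rule for rows without identifiers was used.

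Counts of all 30 libraries were fitted in 1 model of 10 groups with edgeR 4.0.16, limma 3.58.1 and R 4.3.3: filterByExpr (minimum count 10, total 15), TMM scaling, robust estimateDisp and glmQLFit, glmQLFTest, and Benjamini-Hochberg adjustment over all 18526 tested features within each contrast, with a threshold of 0.05. The model had 20 residual degrees of freedom. It takes 1 spread per feature over all groups, so the wider spread of the mutant 3 h libraries is averaged with that of the others. A fit of the 6 libraries alone called 8629 of 17012 tested features in the step. The tested rows hold 99.8% of counts. Log2 CPM used a prior count of 2; an SE is approximate, from the log2 fold and its F value. Tests were checked on simulated data with the same spread in all groups and few changed features. That setting differs from these data, so the check does not cover the unequal spread or the many changes seen here.

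Named features were, per direction, the called one with the largest fold (replicates apart, at least 5 CPM in the higher and 1 CPM in the lower group) and the one with the largest change in CPM (replicates apart). All members, sets and rules were chosen with earlier results of these data known. The wild-type 0.5 h replicate 1 library is shallow, with 578179 counts. Alternatives tried were RLE and upper quartile scaling, no filter, DESeq2 1.42.0, fits of the compared libraries alone and a replicate block. Fits without the shallow library, or without 1 replicate of a group that the result compares, were also tried. No mutant 0.5 h library was left out.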

Additional observations from a re-analysis of the deposited data

Results flagged for a closer look

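The step from 3 to 24 h differed between hsfa1abd-2 and the wild type in 522 features by a direct test of the difference (edgeR's quasi-likelihood test, Benjamini-Hochberg adjustment), with 324 more positive and 198 more negative in the mutant. That balance turned to 298 and 318 in a fit of the 12 compared libraries alone and to 168 and 200 without mutant 3 h replicate 3. Without adjustment, 3053 of the 18526 features had p under 0.05 by the same edgeR test. A share of 0.05 would pass with no difference at all, so 3053 is no count of differing features. None of the 4 features given by number was among the 522, which are 2.82% of those tested. At that share, 4 features are too few for this to be read as a result.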

How the results depend on the processing

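Within 1.5 times the reported value stayed 206 recomputed counts, among them all counts of the mutant step, of the wild-type step and of the shared lists. The exceptions, 5 larger and 18 smaller, were all counts of features whose step differed between genotypes. More positive and more negative in the mutant were 446 and 326 with DESeq2, and 298 and 318 in a fit of the 12 compared libraries, where the balance of the directions turned. With 1 replicate left out the difference was called in 238 to 1229 features, more positive in 144 to 822 and more negative in 77 to 407. With 1 mutant replicate left out the called features of the step itself numbered 8637 to 9624. The mean mutant change over wild-type rises was 1.33 with a prior count of 0.5 and 1.17 with no filter. Over wild-type falls it was -1.67 with a prior count of 0.5, -1.62 with the set chosen from the 6 wild-type libraries alone, and -1.55 to -1.48 with 1 replicate left out. Causes of these moves were not tested. The counts of shared lists and of early classes were added after seeing the data. No named feature or set mean changed sign. The balance of rises and falls among calls of the step turned with upper quartile scaling (57.1% rises, against 47.0%), and that of the difference turned without mutant 3 h replicate 3 (168 and 200). Same-numbered mutant libraries at 3 and 24 h deviated with r = 0.03, 0.00 and -0.06, and differently numbered ones with r = -0.15 to 0.15. With 3 libraries a side these values cannot show whether the numbers pair the libraries. With a replicate block 9757 features were called in the step (1850 and 2826 at least 2-fold higher and lower) and 503 in the difference.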

Other observations

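A few features went from no count to a level above the floor or back. In 3 features the mutant libraries at 3 h held 0 counts and each library at 24 h at least 10, with a lowest mean of 4.35 CPM at 24 h, at least 14.7-fold higher than the level that 3 counts over the group stand for (0.296 CPM). In 11 features the change ran the other way, with means of 3.83 to 12.3 CPM at 3 h and 0 counts at 24 h, at least 15.8-fold to 50.6-fold lower by the same measure (0.242 CPM). Of the 3 rises, 0 had 0 counts in the wild type at 3 h and 0 had 0 counts in the mutant at 0 h. Of the 11 falls, 7 had 0 counts in the wild type at 24 h as well, and 5 had 0 counts in the mutant at 0 h.

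Among the 20 features with the most CPM at 3 h in the mutant, 7 were at least 2-fold lower at 24 h and 1 at least 2-fold higher. Among the 20 with the most CPM at 24 h, 8 were at least 2-fold higher and 0 at least 2-fold lower than at 3 h. Of all tested features, 15.3% were at least 2-fold lower and 10.1% at least 2-fold higher. Both lists were chosen on the compared libraries, which favours falls in the 3 h list and rises in the 24 h list. The lists share 11 features.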
